A study of Mus musculus with 6 samples.

Results

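The genes Hnf4a, Hnf4g, Nr5a2, Onecut1, Onecut2 and Prox1 encode transcription factors of the foregut and liver. Their open chromatin regions were taken as the peaks that the authors' deposited table assigns to 1 of these 6 genes, which gave 17 of 70494 peaks. Of these 17 peaks, 1 belonged to Hnf4a, 2 to Hnf4g, 3 to Nr5a2, 4 to Onecut1, 3 to Onecut2 and 4 to Prox1. Open chromatin was mapped by ATAC-seq, where a transposase cuts and tags accessible DNA, in mouse definitive endoderm differentiated from epiblast stem cells. All cells were of the line 7H OTX2-dTAG-EGFP, of BL6/129 hybrid background, so the DMSO controls carried the tagged OTX2 as well. Cells received 40 ng/ml Activin A and 3 uM CHIR for 16 h, then 100 ng/ml Activin A and 100 nM LDN for 24 h. The group of 3 dTAG13 libraries received the degrader dTAG13, starting at the primitive streak stage and lasting 24 h, and the group of 3 DMSO libraries received the solvent alone. Each library was made from 50000 sorted live cells. Libraries within a group are technical replicates per the series' design, and every p-value below therefore measures the spread between repeated libraries of 1 line, not between separate cultures.

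Definitive endoderm is the embryonic layer from which the gut tube, liver and pancreas form. HNF4A is a nuclear receptor that controls much of the gene programme of hepatocytes and gut epithelium, and its gene has an upstream promoter and a downstream promoter. HNF4G is its close relative, expressed mainly in gut and pancreas. NR5A2 (LRH-1) is a nuclear receptor with roles in early embryos and in bile acid synthesis, ONECUT1 (HNF6) and ONECUT2 act in liver, bile duct and pancreas development, and PROX1 is a homeodomain factor needed for liver outgrowth and lymphatic fate. OTX2 is a homeodomain factor of the anterior embryo that binds sites with the core TAATCC, which reads GGATTA on the other strand.

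The sequences below, from the GRCm38 assembly of mm10, are those of peaks described here: the called Hnf4a peak, the strongest Hnf4g peak, the peaks at Nr5a2 that were listed for dTAG13, and the promoter peak and strongest peak of Onecut1. No call or fold change rests on these letters. The Hnf4a peak lies at chr2:163547042-163547149 (plus strand), and the Hnf4g peak at chr3:3467347-3467636 (plus strand). The Nr5a2 peaks lie at chr1:136960568-136960628 and chr1:136953088-136953210 and are written on the minus strand, that of the gene. The Onecut1 peaks lie at chr9:74861713-74861856 and chr9:74868375-74868599 (plus strand). Capitals mark motif matches: the letters TTATCT are the GATA core AGATAA on the other strand. The OTX core is GGATTA, and CCTAATCC holds an OTX core and the overlapping reversed control ATTAGG on the other strand. The Hnf4a peak, the Onecut1 promoter peak and the Nr5a2 peak before the upstream start site have no capitals because none of the motifs named here occurs inside them.
Hnf4a, downstream promoter: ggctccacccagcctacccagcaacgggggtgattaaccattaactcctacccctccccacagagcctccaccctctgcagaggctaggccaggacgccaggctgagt
Hnf4g, upstream intergenic: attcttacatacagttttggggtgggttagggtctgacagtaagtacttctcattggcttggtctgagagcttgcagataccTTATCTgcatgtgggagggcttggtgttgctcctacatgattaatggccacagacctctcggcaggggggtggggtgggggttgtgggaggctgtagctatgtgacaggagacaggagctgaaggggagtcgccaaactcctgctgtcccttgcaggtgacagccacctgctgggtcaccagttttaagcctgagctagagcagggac
Nr5a2, before the upstream start site: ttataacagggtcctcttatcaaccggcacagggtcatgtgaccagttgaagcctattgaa
Nr5a2, intron: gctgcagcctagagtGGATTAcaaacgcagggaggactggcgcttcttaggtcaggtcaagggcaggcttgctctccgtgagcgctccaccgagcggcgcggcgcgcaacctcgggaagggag
Onecut1, promoter: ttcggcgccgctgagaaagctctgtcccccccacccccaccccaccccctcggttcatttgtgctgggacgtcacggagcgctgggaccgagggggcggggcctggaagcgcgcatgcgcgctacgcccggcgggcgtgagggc
Onecut1, intron: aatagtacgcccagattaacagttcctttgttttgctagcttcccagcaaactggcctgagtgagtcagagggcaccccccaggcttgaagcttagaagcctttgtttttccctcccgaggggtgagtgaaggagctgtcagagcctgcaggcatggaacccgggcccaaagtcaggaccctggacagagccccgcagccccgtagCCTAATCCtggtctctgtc

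The GATA core lay within 100 bases of the midpoint of 4 of the 17 peaks, beside 15.6% of all 70494 peaks: the stronger Hnf4g peak, 2 Prox1 peaks and the Nr5a2 peak before the upstream start site, where the matches are outside the peak itself. The OTX core was found in this window at 1 peak, in the Nr5a2 intron (8.81% of all peaks), and its reversed control ATTAGG at 1 peak, in the Onecut1 intron (7.06% of all peaks). Scanning whole peaks added the OTX core in the Onecut1 intron, for 2 of 17 peaks. The called Hnf4a peak held no OTX core. No window held the FOX core TGTTTAC (5.33% of all peaks), the HNF4 core CAAAGTCCA (0.214%), the ONECUT cores ATCGAT (0.406%) and TTGATT (7.27%), or the NR5A cores CAAGGTCA (1.11%) and CAAGGCCA (1.58%). A match is a description of the letters and not a measured binding site.

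Upon OTX2 degradation, accessibility fell at the Hnf4a downstream promoter by the deposited test, and no other peak of the 6 genes passed it. That call was lost with the median fold change of all peaks moved to 0 (adjusted p 0.0583) and when any library but DMSO library 3 was left out. It was kept with the median of the peaks in both groups' pooled peak lists moved to 0 (adjusted p 0.0307), so the result depends on the centre chosen. By the authors' deposited table, 1 of the 17 peaks (5.88%) had an adjusted p under 0.05, against a background of 5.26% of all peaks with an adjusted p. For calls lower in dTAG13 that background was 3.79%, and for calls higher in dTAG13 it was 1.47%. The share of calls at these genes was thus near that of all peaks. At an adjusted p under 0.1 the count was again 1 of 17, against 9.10% of all peaks, or 6.28% for those lower in dTAG13. The other 16 peaks had log2 fold changes of dTAG13 over DMSO from -1.34 to 2.37 in the authors' deposited table, with standard errors (SE) of 0.31 to 1.35 and adjusted p of 0.322 to 0.930. Their 95% intervals stayed within a 2-fold change in either direction for 2 peaks, at Hnf4g and Onecut2, and reached beyond it for 14. For these 14 a change of that size was not excluded in at least 1 direction and is not shown to be absent. Of the 17 fold changes 10 were negative and 7 positive, and 58.2% of all peaks were negative. The median over the 17 peaks was -0.35, beside -0.18 over all peaks.

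**Figure D1:**
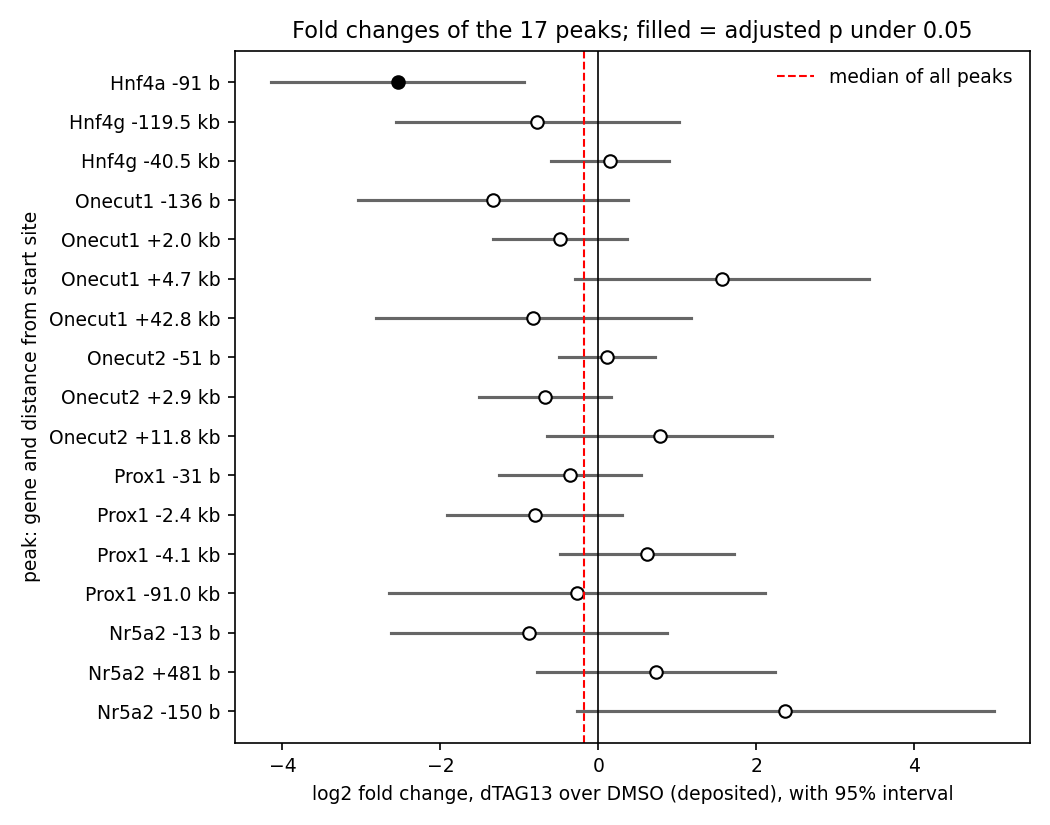
Deposited log2 fold changes of dTAG13 over DMSO (x axis) for the 17 peaks of the 6 genes (y axis, gene and distance from its start site in bases or kilobases), with 95% intervals from the deposited SE. The interval of the called Hnf4a peak runs from -4.14 to -0.94, and the intervals of the other 16 peaks include 0.

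These peaks rested on few reads. The mean normalized count, the mean over 6 libraries of reads divided by a size factor that puts libraries of different depth on 1 scale, had a median of 6.42 at the 17 peaks (2.45 to 32.2), beside 7.33 over all peaks. The deposited means hold enough digits to recover the whole number of reads in each library at all 17 peaks. Summed over the 17 peaks, the DMSO libraries held 203, 270 and 265 reads and the dTAG13 libraries 134, 119 and 184. Recovered size factors were 1.09, 1.31 and 1.35 for DMSO and 0.780, 0.823 and 0.961 for dTAG13, so every DMSO library had a larger one than every dTAG13 library. Totals of sequenced reads were not used here, so sequencing depth and the share of reads in peaks cannot be told apart. The libraries are numbered here by size factor, since the table names none of them. Of the nonzero read numbers at weak peaks 79.0% were even, and whether both ends of a fragment were counted is not given in the sources used here. As a check of the cell label, all 8 definitive endoderm marker genes had a promoter peak within 1 kb, as had 3 of 4 markers of primitive streak and mesoderm, 3 of 5 pluripotency markers and 2 of 3 neural markers. These counts take both groups together and barely separate the cell types, so the check is weak. The promoter peaks of the streak marker T and the neural marker Sox1 were in the pooled dTAG13 list alone. That of the streak marker Tbx6 was in the DMSO list alone, and those of Mixl1 (streak) and Pax6 (neural) were in both lists. The endoderm marker Eomes also had a promoter peak in the dTAG13 list alone. By the authors' deposited table the T peak was not called (log2 fold change 1.53, SE 1.87, adjusted p 0.698). Calls at the markers were, in the same order, 3 of 34 peaks (lower in dTAG13), 1 of 15 (higher), 3 of 20 (2 lower, 1 higher) and 1 of 6 (higher), beside 5.26% of all peaks. The calls at definitive endoderm markers were all at 1 gene, Cxcr4. The signal does not measure the OTX2 protein, so its loss was not checked here. In bulk libraries, fewer cells with an open region and a less open region in each cell cannot be told apart.

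**Figure D2:**
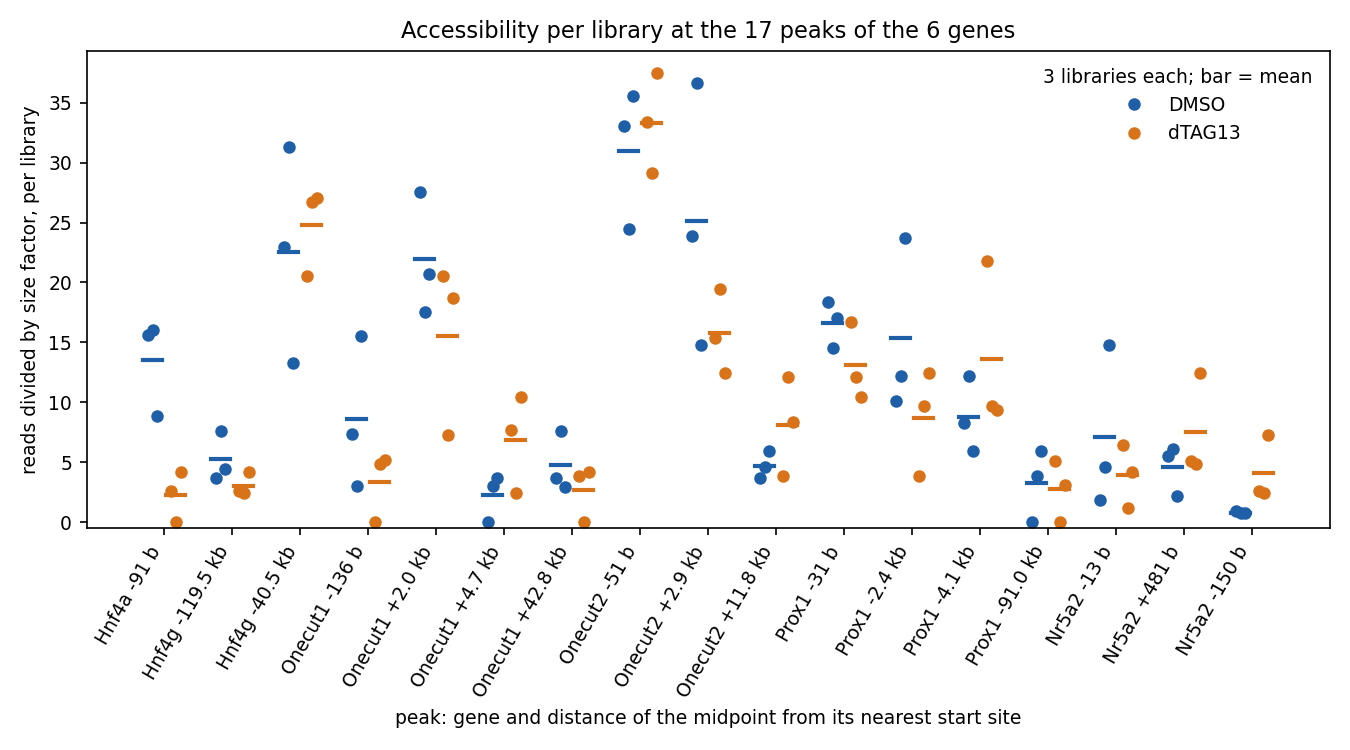
Normalized reads (y axis) in each of the 3 DMSO and 3 dTAG13 libraries at the 17 peaks of the 6 genes. At Hnf4a the dTAG13 libraries, at most 4.16, all lie below the lowest DMSO library at 8.88, and of the other peaks only that of Nr5a2 150 bases before its start site has groups that do not overlap.

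Hnf4a had 1 peak, 108 bases long and centred 91 bases before the start site of the downstream promoter at position 163547187. In GENCODE it also lies in an intron of the transcript from the upstream promoter. The DMSO libraries held 17, 21 and 12 reads there, and the dTAG13 libraries 2, 0 and 4. After normalization these were 15.6, 16.0 and 8.88 for DMSO and 2.57, 0 and 4.16 for dTAG13. All dTAG13 libraries lay below all DMSO libraries. The means were 13.5 ± 4.01 (SD, n = 3) and 2.24 ± 2.10 (SD, n = 3). In the authors' deposited table the log2 fold change was -2.54 (SE 0.82, adjusted p 0.0408), a 5.82-fold higher signal in DMSO. The adjusted p was close to the threshold: with the median fold change of all peaks moved to 0, the log2 fold change was -2.36 and the adjusted p 0.0583. With the median of the peaks in both pooled lists moved to 0 instead, they were -2.64 and 0.0307. Leaving out a library, with size factors and dispersion held, gave log2 fold changes of -3.42 to -1.98. The p-value met the largest deposited p of any called peak, 0.00263, only without DMSO library 3, and was 0.0208 without dTAG13 library 2, the library with 0 reads.

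The peak was in the pooled DMSO list and not in the pooled dTAG13 list. Of all peaks, 40.1% were in the DMSO list alone and 11.8% in the dTAG13 list alone, and every DMSO library had a larger size factor than every dTAG13 library. The lists come from the same libraries as the fold change, so they are not separate support for it. The nearest peak of the dTAG13 list lay 15046 bases from the downstream start site. At the upstream promoter of Hnf4a, whose start site is at position 163506808, no peak was near: the closest in the table was 13319 bases away. Elsewhere inside Hnf4a the table assigned 3 peaks to the antisense gene Hnf4aos, and none of them was called. At the peak starting at 163536807, the DMSO libraries held 7, 7 and 6 reads and the dTAG13 libraries 0, 2 and 2, with a deposited log2 fold change of -1.81 in the authors' deposited table (SE 1.11, adjusted p 0.369). Its groups did not overlap. At the peak starting at 163540676, the reads were 11, 0 and 8 against 2, 0 and 2, and the groups overlapped. At the peak starting at 163532070 they were 5, 11 and 12 against 4, 4 and 4, again with overlap after normalization. The authors' deposited table gave the former a log2 value of -1.77 ± 1.25 (SE), with an adjusted p of 0.453. The latter had -0.65 ± 0.75 (SE) in the authors' deposited table, and its adjusted p was 0.682. All 4 peaks in the gene had negative values, as had 58.2% of all peaks, and only the promoter peak passed the test.

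**Figure D3:**
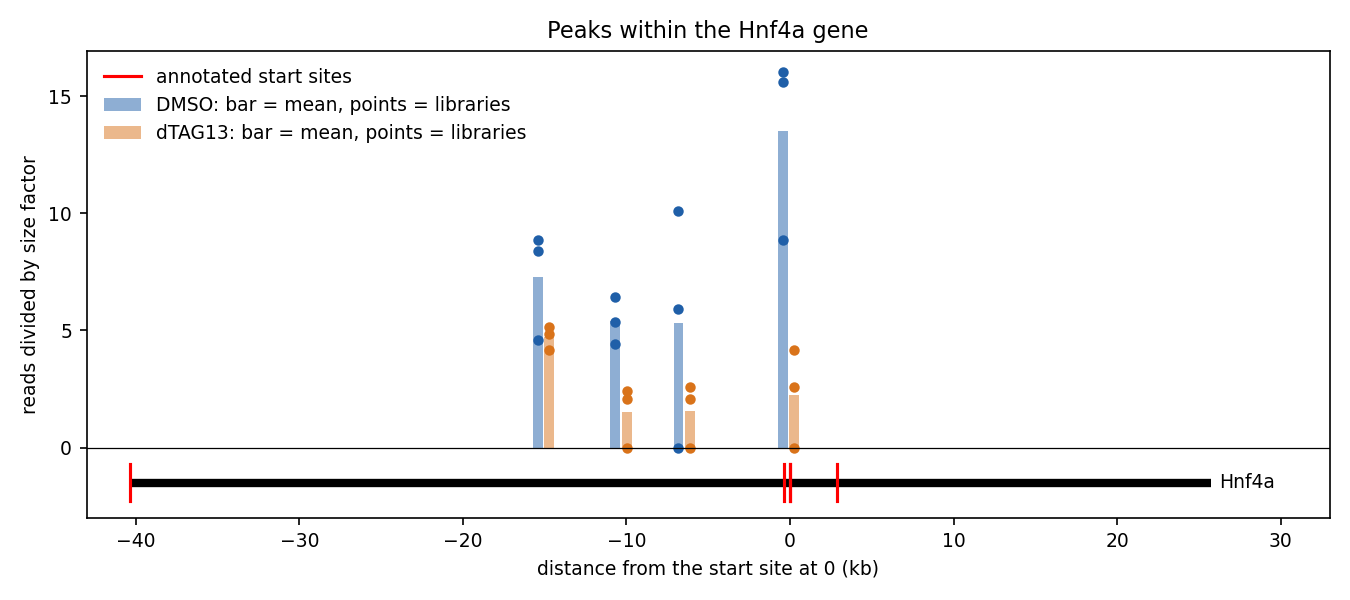
Peaks within Hnf4a by distance from the downstream start site (x axis, kilobases) and their signal in each group, with the gene's start sites marked. The peak next to the downstream start site is the called one, and the upstream start site has no peak within 13319 bases.

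Hnf4g, the paralogue of Hnf4a, had 2 intergenic peaks and none at its promoters. Its start sites at positions 3508030 and 3634150 lay 40394 and 114499 bases from the nearest peak. The stronger peak, centred 40538 bases upstream and 290 bases long, held 25, 41 and 18 reads in DMSO and 16, 22 and 26 in dTAG13. Normalized, the means were 22.5 ± 8.99 (SD, n = 3) and 24.8 ± 3.68 (SD, n = 3), with overlapping groups. In the authors' deposited table its log2 fold change was 0.14 (SE 0.38, adjusted p 0.874), with a 95% interval of -0.60 to 0.89, and it was in both pooled lists. This peak thus differed by less than its error, and the interval leaves out a 2-fold change either way. The other peak, 119495 bases upstream, held 4, 10 and 6 reads in DMSO and 2, 2 and 4 in dTAG13 and was in the DMSO list alone. Its log2 fold change in the authors' deposited table was -0.77 (SE 0.91, adjusted p 0.687).

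Nr5a2, the nuclear receptor gene with several annotated start sites, had 3 weak promoter peaks with no common direction. The peak at chr1:136949148-136949223, over the start site at 136949173 and overlapping an untranslated exon part in GENCODE, held 2, 6 and 20 reads in DMSO and 5, 1 and 4 in dTAG13. A single DMSO library was high and the rest overlapped. The log2 fold change in the authors' deposited table was -0.87 (SE 0.89, adjusted p 0.629), and the leave-out value without DMSO library 3 was 0.26. The intron peak 481 bases after the start site at 136953630, the one with the OTX core, held 6, 8 and 3 reads in DMSO and 4, 4 and 12 in dTAG13. Its groups overlapped, and the log2 fold change in the authors' deposited table was 0.73 (SE 0.77, adjusted p 0.639).

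The peak 150 bases before the most upstream start site of Nr5a2, at 136960448, had the most positive fold change of the 17. It held 1, 1 and 1 reads in DMSO and 2, 2 and 7 in dTAG13. Normalized, the DMSO libraries were at 0.918, 0.763 and 0.740 and the dTAG13 libraries at 2.57, 2.43 and 7.28, so the groups did not overlap. The log2 fold change in the authors' deposited table was 2.37 (SE 1.35, adjusted p 0.322), with a 95% interval of -0.27 to 5.01. The difference therefore did not pass the test. Among peaks with a mean under 10, groups did not overlap at 2 of 10 peaks of the 6 genes, Hnf4a and this one, beside 30.6% of all such peaks with recovered reads.

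Onecut1, which encodes HNF6, had 4 peaks. In GENCODE its promoter peak and both peaks in its introns also lie in an intron of another gene, Gm20649. The signal there cannot be assigned to 1 of these genes. The promoter peak, centred 136 bases before the start site at 74861921, held 8, 4 and 21 reads in DMSO and 0, 4 and 5 in dTAG13. The highest library was from DMSO and the lowest from dTAG13, and the groups overlapped after normalization (3.05 to 15.5 against 0 to 5.20). Its log2 fold change in the authors' deposited table was -1.34 (SE 0.87, adjusted p 0.406), and the leave-out value without DMSO library 3 was -0.58. The strongest peak of the gene lay in an intron, 2003 bases after the start site of a processed transcript at 74866484. It held 30, 23 and 28 reads in DMSO and 16, 6 and 18 in dTAG13, with normalized means of 21.9 ± 5.10 (SD, n = 3) and 15.5 ± 7.18 (SD, n = 3). The groups overlapped, and the log2 fold change in the authors' deposited table was -0.49 (SE 0.43, adjusted p 0.565).

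A further Onecut1 intron peak, 4670 bases after that start site (chr9:74871113-74871195), had a positive value. It held 0, 4 and 5 reads in DMSO and 6, 2 and 10 in dTAG13 and was in the dTAG13 list alone. The log2 fold change in the authors' deposited table was 1.57 (SE 0.95, adjusted p 0.361), and the groups overlapped. The remaining peak, 42837 bases from the same site, had a mean normalized count of 3.71 and a log2 fold change of -0.82 in the authors' deposited table (SE 1.02, adjusted p 0.704). The 4 peaks of Onecut1 therefore held 3 negative values and 1 positive value, none of them called.

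Onecut2, the relative of Onecut1, had the strongest peak of the 17, at chr18:64339872-64340065 over its start site at 64340020. Its mean normalized count of 32.2 stood at the 90.6 percentile of all peaks. It held 36, 32 and 48 reads in DMSO and 26, 24 and 36 in dTAG13. Normalized means were 31.0 ± 5.82 (SD, n = 3) and 33.3 ± 4.15 (SD, n = 3), and the groups overlapped. The log2 fold change in the authors' deposited table was 0.11 (SE 0.31, adjusted p 0.882), with a 95% interval of -0.50 to 0.72. An intron peak 2857 bases after the start site held 26, 48 and 20 reads in DMSO and 12, 16 and 12 in dTAG13. After normalization 1 dTAG13 library at 19.4 exceeded the lowest DMSO library at 14.8, and the log2 fold change in the authors' deposited table was -0.68 (SE 0.43, adjusted p 0.386). The other intron peak, 11758 bases after the start site, had a log2 fold change of 0.78 in the authors' deposited table (SE 0.73, adjusted p 0.593). All 3 peaks were in both pooled lists.

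Prox1 had 4 peaks, of which the strongest covered its start site at 190170714 (chr1:190170675-190170814) and overlaps the untranslated exon there. It held 20, 19 and 23 reads in DMSO and 13, 10 and 10 in dTAG13. Normalized means were 16.6 ± 1.96 (SD, n = 3) and 13.1 ± 3.24 (SD, n = 3), and the highest dTAG13 library, at 16.7, lay within the DMSO range. The log2 fold change in the authors' deposited table was -0.35 (SE 0.46, adjusted p 0.717). The peak 2371 bases upstream, inside an intron of the antisense gene Prox1os, held 11, 16 and 32 reads in DMSO and 3, 8 and 12 in dTAG13. The groups overlapped, and the log2 fold change in the authors' deposited table was -0.81 (SE 0.56, adjusted p 0.445). For the peak 4070 bases upstream, the authors' deposited table gave 0.62 ± 0.56 (SE) in log2, with an adjusted p of 0.577. The farthest peak, 90966 bases upstream, had -0.27 ± 1.21 (SE) in the authors' deposited table, and its adjusted p was 0.930. ATAC-seq carries no strand, so signal of Prox1 and of Prox1os cannot be told apart.

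Of the 17 peaks, 7 lay within 1 kb of a start site by the authors' annotation (30.7% of all peaks do), 3 between 1 and 3 kb, 3 in introns and 4 were distal intergenic. Per 100 bases of peak, the normalized signal of these 7 promoter peaks in DMSO was highest at Onecut2 (16.0 ± 3.00, SD, n = 3), then Hnf4a (12.5 ± 3.71), Prox1 (11.9 ± 1.40) and the Nr5a2 peak at 136949173 (9.31 ± 8.99). These 4 neighbours in the order overlapped in their libraries. Onecut1 (6.0 ± 4.41) and the Nr5a2 intron peak (3.75 ± 1.70) followed, also overlapping, and the most upstream Nr5a2 peak was lowest at 1.32 ± 0.16, below every library of the Nr5a2 intron peak. In dTAG13 the order was Onecut2 (17.2 ± 2.14), Prox1 (9.34 ± 2.31), the Nr5a2 peaks (6.71 ± 4.53, 6.09 ± 3.52 and 5.17 ± 3.43, from the most upstream site down), Onecut1 (2.33 ± 2.02) and Hnf4a (2.08 ± 1.94). Hnf4a thus stood next to the top in DMSO and at the bottom in dTAG13, where it overlapped Onecut1. In dTAG13 all libraries of the Onecut2 peak lay above those of the other promoter peaks, and neighbours further down the order overlapped. The median of all promoter peaks, over the 6 libraries together, was 9.03 per 100 bases. On that basis Onecut2 (16.6) and Prox1 (10.6) stood above it, and Hnf4a (7.29), Onecut1 (4.17) and the Nr5a2 peaks (4.02 to 7.24) below it. Without division by length, 1 of the 7 exceeded the median mean normalized count of all promoter peaks, 15.8. In the pooled lists, 7 of the 17 peaks were in both (48.2% of all peaks), 7 in the DMSO list alone (40.1%) and 3 in the dTAG13 list alone (11.8%). With 1 pooled list per group these counts have no replicate check. The DMSO libraries had the larger size factors, and the effect of depth on the lists was not tested.

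**Figure D4:**
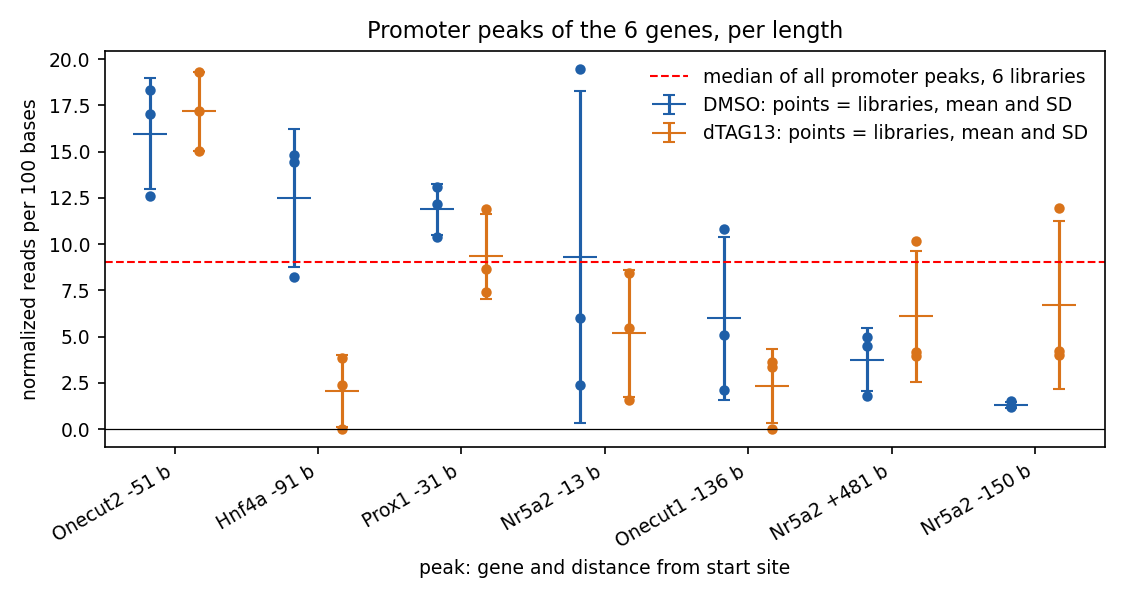
Normalized reads per 100 bases (y axis) at the 7 promoter peaks of the 6 genes (x axis), with each library as a point and the mean and SD of 3 libraries per group, beside the median of all promoter peaks (dashed). Onecut2 is highest in both groups, and Hnf4a goes from 12.5 in DMSO to 2.08 in dTAG13.

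The table also marks genes as lower or higher in expression, with no further description of that comparison in the files used here. Of 370 genes marked lower and 429 marked higher in the authors' deposited table, none was among the 6, so the called Hnf4a peak belonged to a gene with no such mark.

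Other genes of the foregut and liver network were taken as a list of 24 regulators and cofactors, of which 20 had peaks, 56 in all. By the authors' deposited table, calls numbered 2 of the 56 (3.57%), both lower in dTAG13, beside the 3.79% of all peaks called lower. The median log2 fold change was -0.44, beside -0.18 over all peaks. Of the called peaks, that of Klf6, a zinc finger factor, was intergenic and lay at chr13:5892292-5892564. Its nearest start site in GENCODE was that of Gm47507, 5319 bases away, and not that of Klf6. Assignment by nearest start site would thus not give this peak to Klf6, and gave 2 calls among 59 network peaks. The peak had an OTX core within 100 bases of its midpoint, as 8.81% of all peaks have. Reads at the Klf6 peak were 13, 41 and 54 against 4, 8 and 8, and its log2 fold change in the authors' deposited table was -1.85 (SE 0.52, adjusted p 0.0158). Among the genes with no peak in the table were Foxa3, Nr0b2 and Nr1h4.

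Genes that such factors switch on in liver cells were taken as a list of 17 liver targets, of which 12 had peaks, 23 in all. Apoa2, Cyp8b1, Serpina1a, Tat and Tdo2 had none. A promoter peak within 1 kb was found at 4 of these 17 genes and at 18 of the 24 network genes, a difference that was not tested. By the authors' deposited table, the only call among the 23 peaks (4.35%) was lower in dTAG13, a share near the 3.79% of all peaks called lower. The median log2 fold change over the 23 was -0.37, beside -0.18 over all peaks. It was assigned to Ttr, which encodes the thyroid hormone carrier transthyretin, and lay at chr18:20648923-20649191. It held 22, 25 and 22 reads in DMSO and 2, 3 and 8 in dTAG13, with no overlap. No OTX core lay within 100 bases of its midpoint, but the FOX core (5.33% of all peaks) and the GATA core (15.6%) did. The log2 fold change in the authors' deposited table was -1.89 (SE 0.59, adjusted p 0.0364). With the median of all peaks moved to 0 the adjusted p was 0.0607, and the call was lost. With the median of the peaks in both pooled lists moved to 0 it was 0.0250, and the call was kept. The peak lies in an intron of another transcript, and the nearest start site in GENCODE is not that of Ttr, so assignment by nearest start site left 0 calls among the liver targets.

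**Figure D5:**
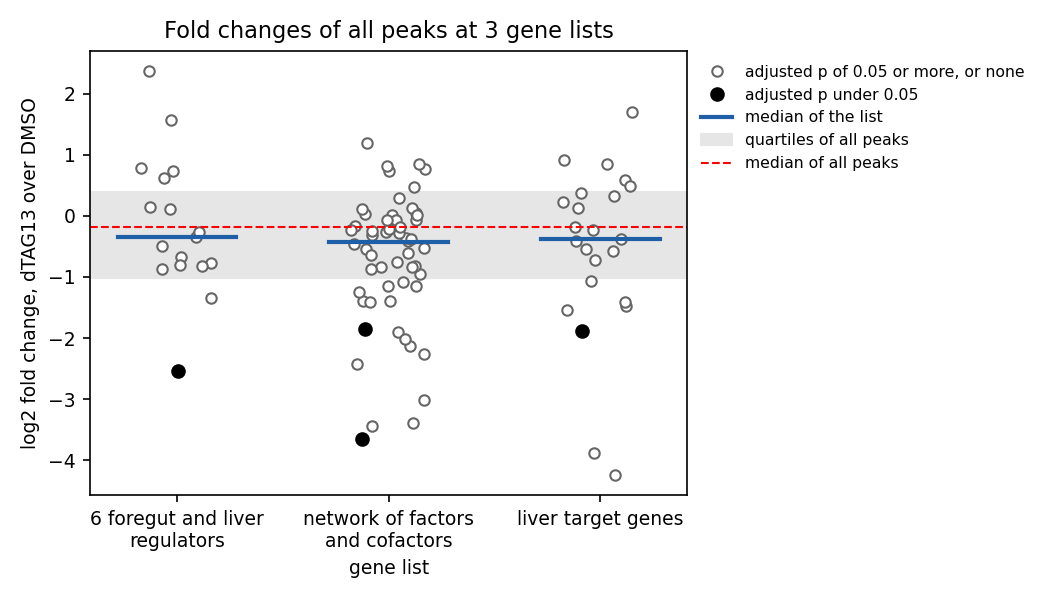
Deposited log2 fold changes of dTAG13 over DMSO (y axis) for every peak of the 6 genes, of the network genes and of the liver target genes (x axis), with called peaks filled, list medians as lines and the quartiles of all peaks shaded. The called peaks are 1 of 17, 2 of 56 and 1 of 23, all with negative values.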

How the data were processed

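ATAC-seq of 3 DMSO and 3 dTAG13 libraries was used as deposited, with groups from the labels' treatment. Per the submitters' processing notes, fastp, Bowtie2, MACS2, featureCounts, HOMER 4.11 and ChIPseeker were used on mm10, with no role or order given. Per the file headers, the deposited table gives the signal per peak as a mean normalized count, with column names of DESeq2 output. The log2 fold changes and SE, the score (fold change over SE), the p-value and the adjusted p-value are those the authors deposited; per the file headers, a negative fold change means enrichment in DMSO. Pooled peak lists hold positions only and were shared at 1 base of overlap.

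No model was fitted across peaks: calls are the deposited adjusted p under 0.05, over 69128 peaks. Reads per library were recovered by writing each mean as a sum of whole reads times a step per library and keeping the solution that returned the deposited fold change. At the 17 peaks it differed from the deposited value by at most 4.31e-06, and the next best solution by at least 0.00047. Of 44183 peaks with a mean under 10, 98.7% were solved. Which deposited sample a recovered library is remains unknown, and its group follows from the header's stated direction. The scripts were tested on simulated data. A motif and some genes of the lists are not reported here; counts over the lists include those genes.

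Sequences came from GRCm38.p6 and start sites from GENCODE release M21. Motifs were searched on both strands. The 6 genes, lists and motifs were chosen with earlier results of these data known. Named were every called peak and each gene's peak nearest to a start site, with the smallest p and with the largest mean. Alternatives covered weak peaks, centring, threshold, gene assignment, overlap, window and left-out libraries, the last chosen after seeing the data. Python 3.11.15, numpy 2.4.6, pandas 2.3.3, scipy 1.17.1 and matplotlib 3.10.9 were used.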

Additional observations from a re-analysis of the deposited data

How the results depend on the processing

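With the median of all peaks moved to 0 (a shift of 0.18 in log2), 0 peaks of the 6 genes and 0 of the liver target genes were called. With the median of the peaks in both pooled lists moved to 0 (a shift of 0.09 the other way), 1 peak of the 6 genes and 1 of the liver target genes were called. At an adjusted p under 0.1, 6 of 56 network peaks (10.7%; 5 lower, 1 higher) and 2 of 23 liver target peaks (8.70%) were called, beside 9.10% of all peaks. Assigning peaks to the nearest start site gave 0 calls among 19 liver target peaks, and the same 17 peaks for the 6 genes. The OTX core was in 2 of the 17 whole peaks. Leaving out each library in turn gave 0 to 1 calls at the 6 genes, the 1 being without DMSO library 3; these fits hold fewer samples by construction. It changed the sign at 4 of the 17 peaks, none of them called. Besides those fold changes per peak, 97 values were compared under the alternatives: 85 kept their direction and side of the threshold, or stayed within their tolerance, and none of these 97 reversed. Among them, the counts and medians over gene lists or peaks were kept in 23 cases and moved in 11. Values of single peaks, nearly all of them without a call, were kept in 62 cases and weakened in 1, at Hnf4a. Leaving out libraries was not run for the network and liver target peaks. No paired analysis was possible because the recovered libraries carry no replicate number. Of the 16 peaks without a call, 14 have intervals reaching beyond a 2-fold change; depth, spread between libraries and their number were not told apart.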

Other observations

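Peaks inside the gene bodies of Prox1 and Nr5a2 were assigned to other genes by the deposited table. In the last intron of Prox1, 3 peaks assigned to Gm28172 had log2 fold changes of -2.29, -1.26 and 0.69 in the authors' deposited table (SE 1.48, 1.04 and 0.67, adjusted p 0.401, 0.534 and 0.605). In the last intron of Nr5a2, a peak assigned to Gm17781 (chr1:136858800-136858888) held 2, 2 and 4 reads in DMSO and 11, 4 and 4 in dTAG13. Its log2 fold change in the authors' deposited table was 1.84 (SE 0.90, adjusted p 0.232), and it was in the dTAG13 list alone. None of these peaks was called.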
